A study of Rattus norvegicus with 6 samples.

Results

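The genes described here encode the machinery of fatty acid oxidation in rat liver together with well-known targets of the fatty acid receptor PPARA. The group holds 34 genes, taken from a list of rat gene symbols and matched to the arrays through the transcript accession of each probe. All 34 were found, on 39 of the 30367 probes of the array, and all 34 could be tested, among 16389 tested genes. Of those 16389, 6345 matched no single symbol and were kept under the transcript or probe identifier of the array. Livers came from 3 male Wistar Hannover rats given pregnenolone-16α-carbonitrile (PCN) by gavage, at 100 mg/kg daily for 7 days, and from 3 male rats of the same strain given only the corn oil vehicle over the same 7 days. Rats of both groups were bought when 4 weeks old and held for 1 week before dosing. Each liver was measured on its own 1-colour Agilent expression array with 100 ng of total RNA, and neither group carried a genetic change according to the labels. In rodents PCN, itself a steroid derivative, is the standard agonist of the pregnane X receptor, a sensor of foreign compounds, and the comparison asks which transcripts of lipid oxidation differ after repeated dosing with it.

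Fatty acids are broken down in liver along 3 routes. Mitochondria oxidise fatty acids of medium and long chain length, the long chains after import as carnitine esters. Peroxisomes shorten very long and branched chains. P450 enzymes of the CYP4A family oxidise the far (omega) end of the chain in the endoplasmic reticulum. PPARA, a nuclear receptor that pairs with the retinoid X receptor, binds fatty acids and raises transcription of enzymes of all these routes during fasting, and in rodents it responds strongly to peroxisome proliferators. Interplay between pregnane X receptor activation and hepatic lipid handling is known from work in mice, with the carnitine importer gene Cpt1a among the genes studied for it.

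The values below are log2 of the array signal over the 75th percentile of that array, so that 0 stands for a spot as bright as that percentile, and a gene's change is the mean of the PCN arrays minus the mean of the control arrays on this scale. The 75th percentile was 488 to 627 intensity units on the PCN arrays and 633 to 758 on the control arrays, and 0 spots were saturated. The 3 PCN arrays shared 1 slide and 1 scan and the 3 control arrays another, and therefore effects of slide, scan and treatment cannot be told apart. Treatment was visible in Cyp3a23-3a1, the classical target of the pregnane X receptor, up 19.8-fold with PCN by the limma fit (log2 change 4.31 ± 0.19 SE with 3 rats in each group, adjusted p = 1.69e-04). Of 7 hepatocyte markers 0 passed the test (median change 0.030). Of 10 Kupffer cell markers 0 passed as well, but all 10 lay below 0 (median −0.39), with a summed linear signal of 48.1 to 69.9 on PCN arrays and 67.8 to 77.9 on control arrays. Stellate cell markers gave 1 of 8 higher and 2 lower (summed signal 18.6 to 22.1 on PCN and 20.8 to 22.4 on control arrays, in the same order for the lists that follow), endothelial markers 1 of 5 lower (22.6 to 26.0 and 23.9 to 26.4) and red blood cell markers 0 of 3 (191 to 243 and 242 to 270). T cell markers gave 2 of 4 lower (0.404 to 0.510 and 0.572 to 0.722), among them Lck. Only 1 PCN array measured Lck well above background, and it entered the test only through the control arrays. Muscle markers gave 3 of 4 lower (0.449 to 0.631 and 0.896 to 1.24), with Ckm and Acta1 dim on PCN arrays (mean −4.28 and −5.40). Over all tested genes 4.37% were higher and 15.5% lower. Of the adipocyte markers only Cidea and Cfd could be tested (12.1 to 22.9 and 6.34 to 9.98 on PCN and control arrays). Cidea was higher (log2 change 1.81), while Cfd lay below 0 (−0.28) and did not pass. Among defining markers, Adipoq, Plin1, Lep and Retn (adipocyte), Cd3e and Cd2 (T cell), Myh6 and Myh7 (muscle), Stab2 (endothelium) and Hba1 and Hba-a2 (red blood cell) were not tested. In bulk liver, fewer cells of a type and less RNA per cell cannot be told apart, and the part of these markers in the results below was not tested.

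Of the fatty acid oxidation genes and PPARA targets, most did not pass the test with the scaling used here, and the count depends on the scaling: with median scaling 14 of the 34 were higher and 0 lower. With the scaling used here, either way 5 of the 34 genes passed the test, where 19.9% of all tested genes did, and 18 of the 34 had a change below 0, where 57.6% of all did. Past the test (limma, Benjamini-Hochberg adjusted p under 0.05 over all 16389 genes) 2 of the 34 genes were higher with PCN, or 5.88%, where 4.37% of all tested genes were higher. Lower with PCN were 3 of the 34, or 8.82%, against 15.5% of all tested genes. The higher pair was Acaa1a and Acaa1b, the peroxisomal thiolases, and the lower genes were Cyp4a1, Cyp4a8 and Angptl4. The median change of the 34 was −0.049, beside −0.064 over all tested genes. By route, 2 of 5 peroxisomal genes were higher and 0 lower (median change 0.051), 0 of 13 genes of mitochondrial beta-oxidation and electron transfer passed (0.033), and 0 of 4 omega-oxidation genes were higher and 2 lower (−0.43). In 12 of the 34, or 35.3%, the PCN arrays did not overlap the control arrays, 4 of them higher and 8 lower with PCN. Over all tested genes that share was 41.4%, of which 14.7% higher and 26.7% lower.

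**Figure D1:**
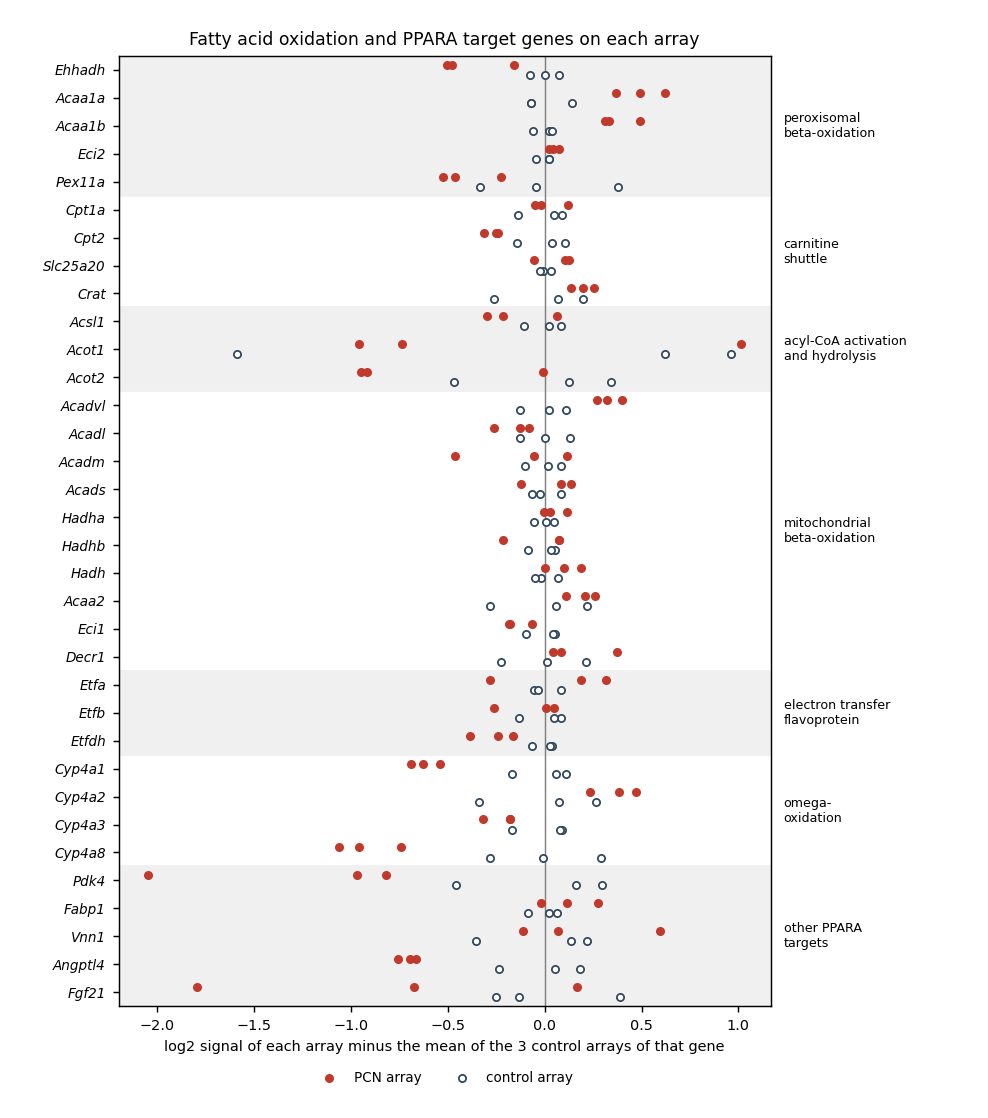
Each row is 1 gene, and each point 1 array, placed at its log2 signal minus the mean of the control arrays of that gene (filled, above: PCN; open, below: control; 3 arrays each). For Acaa1a, Acaa1b, Cyp4a1, Cyp4a8 and Angptl4 the PCN points lie clear of the control points, while those of the mitochondrial genes mostly mix with them and those of Acot1 spread widely in both groups.

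The peroxisomal genes did not move together. Acaa1a and Acaa1b encode peroxisomal 3-ketoacyl-CoA thiolases, which cleave the shortened chain in the last step of the cycle. Acaa1a read 7.63, 7.75 and 7.88 on the PCN arrays, against 7.19, 7.19 and 7.40 on the control arrays. All 3 PCN arrays lay above all 3 control arrays, and the gene rose 1.41-fold (log2 0.49 ± 0.12 SE, adjusted p = 0.0279). Its other, dimmer probe gave 0.30 (adjusted p = 0.0830 in the fit over every tested probe). Acaa1b read 6.89, 6.91 and 7.07 on the PCN arrays, against 6.60, 6.52 and 6.62 on the control arrays. Again the groups did not overlap, and the gene rose 1.30-fold (0.38 ± 0.10, adjusted p = 0.0419), with 0.41 at its other probe (adjusted p = 0.0457 in that fit). The products are closely related, so each probe may also read some of the other transcript. Neither rise was firm: leaving out 1 array ended the call of Acaa1a in 4 of 6 fits (adjusted p = 0.0609 and 0.0784 without PCN replicates 2 and 3, and 0.0900 and 0.0888 without control replicates 1 and 2) and that of Acaa1b in all 6 (adjusted p = 0.0638 to 0.126), and both ended with scaling to the spike-in controls (adjusted p = 0.281 and 0.483).

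Ehhadh, the bifunctional enzyme that performs the hydration and dehydrogenation steps just before the thiolase, went the other way in sign. It read 3.43, 3.75 and 3.40 on the PCN arrays, against 3.98, 3.91 and 3.83 on the control arrays. The groups did not overlap, but the change of −0.38 ± 0.13 did not pass the test (adjusted p = 0.0799, 95% confidence interval −0.69 to −0.08). With 2 of 19 alternative settings Ehhadh was past the threshold as lower. Over all of them its change ran from −0.57 to −0.046 and the limma adjusted p from 0.0313 to 0.818. Subtracting Ehhadh from Acaa1a within each array removes any scaling by 1 factor per array. This gave 4.20, 4.00 and 4.48 with PCN and 3.21, 3.28 and 3.57 in controls, a shift of 0.87 with no overlap. The same subtraction for Acaa1b shifted by 0.76. These pairs were chosen after their values were seen and carry no test. Pex11a, which promotes division of peroxisomes, gave −0.40 ± 0.19 (adjusted p = 0.193), and its control arrays spanned 0.71 on the log2 scale. Eci2, an isomerase for unsaturated chains, gave 0.051 ± 0.09 (adjusted p = 0.729).

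The promoters of both thiolase genes are shown because these are the genes that rose. Sequences are from RefSeq on build GRCr8, cover the 100 bases before the annotated start, and run 5′ to 3′ on the strand of the gene, Acaa1a at chr8:127957381-127957480 (plus strand) and Acaa1b at chr8:127759570-127759669 (minus strand). No letters are in capitals, since the motif described further down has no match in them.
Acaa1a: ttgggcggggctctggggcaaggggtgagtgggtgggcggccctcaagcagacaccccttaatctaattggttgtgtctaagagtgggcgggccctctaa
Acaa1b: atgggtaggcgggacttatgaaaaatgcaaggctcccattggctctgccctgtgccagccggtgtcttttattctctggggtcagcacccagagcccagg
Set side by side without gaps, the 250 bases before the start of these genes were 27.2% identical, in a comparison that allows for no insertion or deletion.

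Mitochondrial oxidation held no gene past the test in either direction with the scaling used here, but this depended on the scaling. Median scaling put Acadvl, Acads, Hadha, Hadh, Acaa2 and Decr1 past the test as higher (0.67, 0.37, 0.39, 0.44, 0.53 and 0.51). It did the same for Cpt1a, Slc25a20 and Crat (0.36, 0.40 and 0.54). The limma adjusted p of these genes ran from 0.00915 to 0.0443. None of them passed with spike-in scaling. The values that follow are from the scaling used here. Import begins with Acsl1, which activates long chains to their CoA esters, and with Cpt1a, the rate-controlling carnitine palmitoyltransferase of the outer membrane. Cpt1a read 3.97, 3.80 and 3.83 on the PCN arrays, against 3.94, 3.90 and 3.71 on the control arrays. The groups overlapped, and the change was 0.018 ± 0.11 (adjusted p = 0.930, 95% interval −0.25 to 0.28). Slc25a20, the carnitine-acylcarnitine carrier of the inner membrane, gave 0.059 ± 0.10, and Crat, the acetyltransferase that buffers acetyl-CoA, gave 0.20 ± 0.14 (adjusted p = 0.712 and 0.365). Cpt2, which returns the chain to CoA on the inner side, read 3.64, 3.65 and 3.58 on the PCN arrays, against 4.00, 3.93 and 3.75 on the control arrays. These did not overlap, though the change of −0.27 ± 0.11 did not pass (adjusted p = 0.124). Acsl1 gave −0.15 ± 0.13 (adjusted p = 0.456).

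The cycle itself is run by acyl-CoA dehydrogenases of different chain length, the trifunctional protein and the thiolase. Among these the gene nearest to the threshold was Acadvl, the dehydrogenase of very long chains. Acadvl read 4.48, 4.43 and 4.56 on the PCN arrays, against 4.03, 4.18 and 4.27 on the control arrays. All PCN arrays lay above all control arrays, with a change of 0.33 ± 0.11 that did not pass (adjusted p = 0.0738). The dehydrogenases of long, medium and short chains, Acadl, Acadm and Acads, gave −0.16, −0.13 and 0.033 (adjusted p = 0.359, 0.619 and 0.869). Hadha and Hadhb, the subunits of the trifunctional protein, gave 0.048 and −0.024, Hadh, the dehydrogenase of shorter hydroxyacyl chains, 0.099, and the mitochondrial thiolase Acaa2 0.19 (adjusted p = 0.760, 0.913, 0.532 and 0.403). For unsaturated chains, the isomerase Eci1 gave −0.14 and the reductase Decr1 0.17 (adjusted p = 0.358 and 0.482). The 95% intervals of the 10 genes together reached from −0.52 to 0.58.

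Electrons from the dehydrogenases pass through the electron transfer flavoprotein, made of the products of Etfa and Etfb, to its oxidoreductase, encoded by Etfdh. Etfa gave 0.071 ± 0.17 and Etfb −0.073 ± 0.13 (adjusted p = 0.804 and 0.723). Etfdh read 2.89, 2.81 and 2.67 on the PCN arrays, against 2.99, 3.09 and 3.08 on the control arrays. The groups did not overlap, and the change of −0.26 ± 0.10 did not pass (adjusted p = 0.120).

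**Figure D2:**
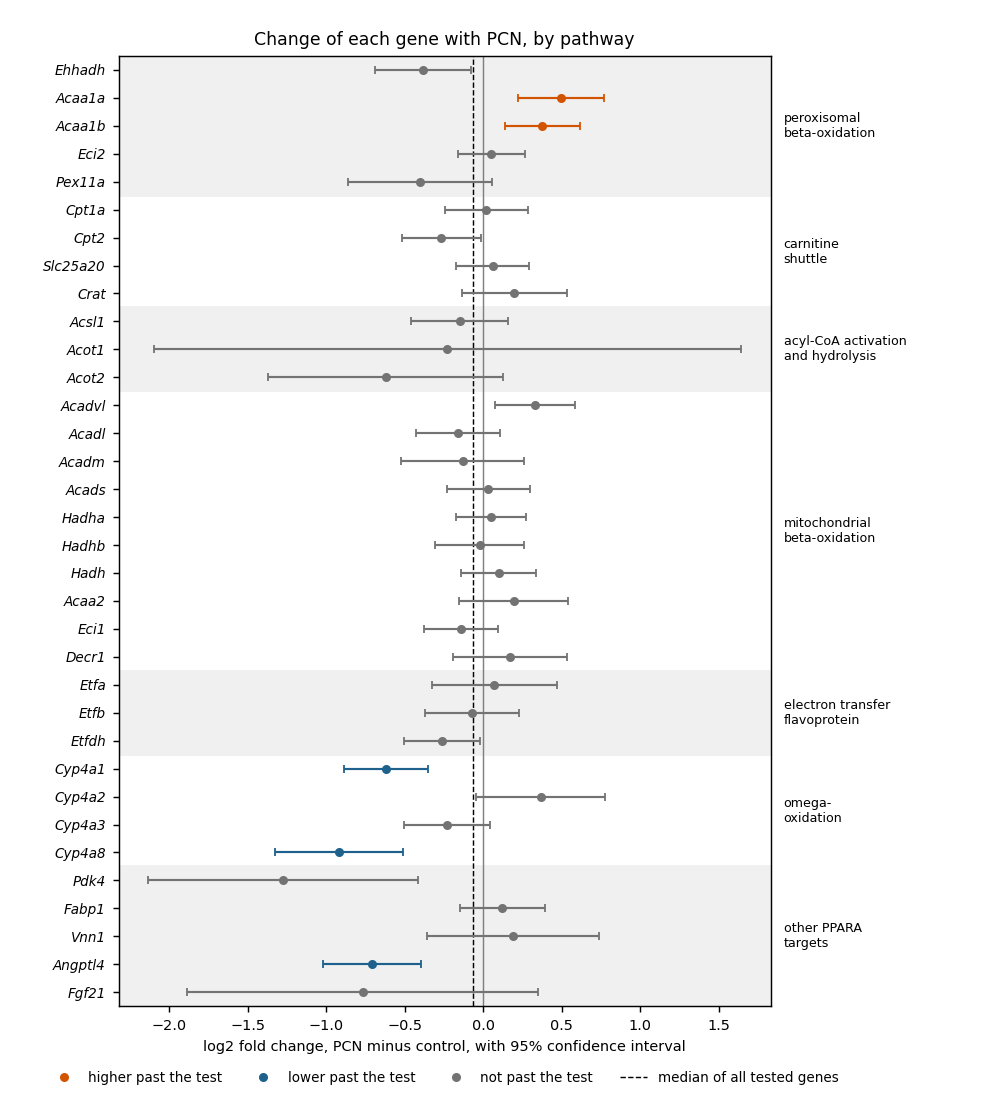
Points are the log2 fold change of each gene, PCN minus control, with bars for the 95% confidence interval of the limma fit (3 arrays per group), ordered by route. The genes of mitochondrial beta-oxidation cluster near 0 between −0.16 and 0.33, Acaa1a and Acaa1b lie to the right of 0, and Cyp4a1, Cyp4a8 and Angptl4 to the left, at −0.62, −0.92 and −0.71.

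Acyl-CoA thioesterases release free fatty acids from CoA, in the cytosol for Acot1 and in mitochondria for Acot2. Acot1 varied more between rats of 1 group than between groups, with standard deviations of 1.08 with PCN and 1.38 in controls. For Acot2 these were 0.53 and 0.42, smaller than the size of its change. Acot1 read 2.32, 4.07 and 2.10 on the PCN arrays, against 4.02, 3.68 and 1.47 on the control arrays. It had 1 high array among the PCN rats and 1 low array among the controls, and its change of −0.23 ± 0.78 had an interval from −2.10 to 1.64 (adjusted p = 0.869). Acot2 read 3.42, 4.36 and 3.45 on the PCN arrays, against 4.71, 4.49 and 3.90 on the control arrays. The groups overlapped, with a change of −0.62 ± 0.31 (adjusted p = 0.215) and −0.65 at the other probe. These genes are close relatives, and their probes may read each other's transcripts.

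Of the 4 CYP4A genes, Cyp4a1 and Cyp4a8 were lower and the other pair did not pass with the scaling used here. Their products add a hydroxyl group to the omega end of fatty acids, and some genes of this family are strongly induced by PPARA agonists in rats. Cyp4a1 read 5.55, 5.40 and 5.46 on the PCN arrays, against 5.92, 6.20 and 6.15 on the control arrays. The groups were clearly apart, and the gene was 1.54-fold lower (log2 −0.62 ± 0.11 SE, adjusted p = 0.0122). Cyp4a8 read 0.81, 1.03 and 0.71 on the PCN arrays, against 2.06, 1.49 and 1.76 on the control arrays. It was 1.89-fold lower, again without overlap (−0.92 ± 0.17, adjusted p = 0.0129), while its other probe was well above background on only 2 arrays of each group and was not tested.

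Cyp4a2 read 8.18, 8.09 and 7.94 on the PCN arrays, against 7.78, 7.97 and 7.37 on the control arrays. The highest control array lay above the lowest PCN array, and the change was 0.37 ± 0.17 (adjusted p = 0.187). With median scaling Cyp4a2 passed as higher (0.70, limma adjusted p = 0.0151), while Cyp4a1 and Cyp4a8 did not pass. Cyp4a3 read 7.12, 7.12 and 6.98 on the PCN arrays, against 7.39, 7.38 and 7.13 on the control arrays. The lowest control array lay just above the highest PCN array, and the change was −0.23 ± 0.11 (adjusted p = 0.204). Cyp4a2 and Cyp4a3 are near copies of each other, so signal may be shared between their probes.

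Within each array, Cyp4a1 minus Cyp4a2 came to −2.63, −2.69 and −2.48 with PCN and −1.86, −1.77 and −1.22 in controls. This is a shift of −0.98, which scaling by 1 factor per array cannot alter. For Cyp4a8 and Cyp4a3 against Cyp4a2 the shifts were −1.28 and −0.59, and for all 3 pairs the groups did not overlap. These pairs too were chosen after the values were seen, so the subtractions are a description with no test.

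Among the other PPARA targets, Angptl4 was lower and the rest did not pass with the scaling used here. Angptl4 is a secreted inhibitor of lipoprotein lipase that rises on fasting. It read 4.62, 4.68 and 4.71 on the PCN arrays, against 5.56, 5.43 and 5.14 on the control arrays. The PCN arrays lay close together and all below the controls, and the gene was 1.63-fold lower (−0.71 ± 0.13, adjusted p = 0.0126). Pdk4, the kinase that shuts off pyruvate dehydrogenase when fatty acids are burned, read −1.74, −1.59 and −2.82 on the PCN arrays, against −0.61, −0.48 and −1.23 on the control arrays. Its groups did not overlap and the change was the largest in size of the 34, at −1.28 ± 0.36, yet it fell just short of the threshold (adjusted p = 0.0503). With 6 of 19 alternative settings it was past the threshold, and over all of them the adjusted p ran from 0.0153 to 0.140.

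Fgf21, a fasting hormone made by liver, read −2.60, −0.64 and −1.48 on the PCN arrays, against −0.42, −1.06 and −0.94 on the control arrays. The PCN rats spanned 1.96 on the log2 scale and overlapped the control range, though the highest array was a control. The change was −0.77 ± 0.47 (adjusted p = 0.297). Vnn1, an enzyme that hydrolyses pantetheine, gave 0.19 ± 0.23 (adjusted p = 0.610). Fabp1, the abundant fatty acid carrier of the hepatocyte cytosol, read 8.88, 8.75 and 9.04 on the PCN arrays, against 8.79, 8.68 and 8.83 on the control arrays. These overlapped, with a change of 0.12 ± 0.11 (adjusted p = 0.498). With median scaling Fabp1 passed as higher (0.46, limma adjusted p = 0.0291).

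PPARA with its partner binds a direct repeat of a hexamer with 1 base between the copies. The letters AGGNCANAGGNCA were searched on both strands in RefSeq windows of build GRCr8 that run from 250 bases before to 50 after the start, which exist for 29 of the 34 genes. The exceptions were Acadl, Acaa2, Decr1, Cyp4a1 and Vnn1. Of the 29, only Fabp1 held a match, against 0.415% of all 33469 windows, and the stricter AGGTCANAGGTCA, whose matches are all contained in the first motif, was found in 0 of the 29 and in 0.0538% of all. Motifs bound by the pregnane X receptor, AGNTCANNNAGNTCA, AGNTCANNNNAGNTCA and TGANCTNNNNNNAGNTCA, were also in 0 of the 29, and in 0.0777%, 0.0568% and 0.0388% of all windows. The Fabp1 match lay on the reverse strand at bases −77 to −65 and is in capitals below. It is shown with the promoters of 2 genes that were lower, all over the 100 bases before the start, at chr4:104749240-104749339 (plus strand) for Fabp1, chr5:133970227-133970326 (minus) for Cyp4a8 and chr7:15258682-15258781 (minus) for Angptl4.
Fabp1: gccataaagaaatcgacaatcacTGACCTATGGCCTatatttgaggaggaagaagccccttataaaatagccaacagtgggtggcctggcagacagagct
Cyp4a8: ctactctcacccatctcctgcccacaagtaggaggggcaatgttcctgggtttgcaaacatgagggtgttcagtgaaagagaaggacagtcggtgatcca
Angptl4: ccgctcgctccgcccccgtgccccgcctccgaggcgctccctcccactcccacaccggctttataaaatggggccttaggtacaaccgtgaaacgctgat
With the scaling used here Fabp1, whose window holds the match, did not pass the test. The 5 genes that did had either no match or no window. With median scaling Fabp1 passed as higher, while Cyp4a1, Cyp4a8 and Angptl4 did not pass. A match describes letters only, and elements outside these windows were not searched.

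Rats of 1 group differed widely at Acot1, Pdk4 and Fgf21 and little at most mitochondrial genes. The range between the highest and lowest of 3 rats was at most 0.60 with PCN and at most 0.50 in controls for the 13 genes of mitochondrial beta-oxidation and electron transfer. For Acot1 it was 1.97 with PCN and 2.55 in controls, for Pdk4 1.23 and 0.75, and for Fgf21 1.96 and 0.64. For Angptl4 it was only 0.083 with PCN and 0.42 in controls. PCN replicate 2 was the highest PCN rat for Acot1, Acot2, Pdk4, Vnn1, Fgf21, Ehhadh and Pex11a, and control replicate 3 was the lowest control for 6 of these 7, all but Fgf21. These 7 were picked after their values were seen. Under each of the 5 other scalings or background corrections PCN replicate 2 remained highest for 7 of 7, and control replicate 3 was lowest for 5 or 6 of 7. In contrast, PCN replicate 2 was the lowest PCN rat for 10 of the 13 mitochondrial genes, a count that came to 9 with quantile normalization, cyclic loess and normexp, to 5 with median scaling and to 2 with spike-in scaling, where it was the highest for 11.

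**Figure D3:**
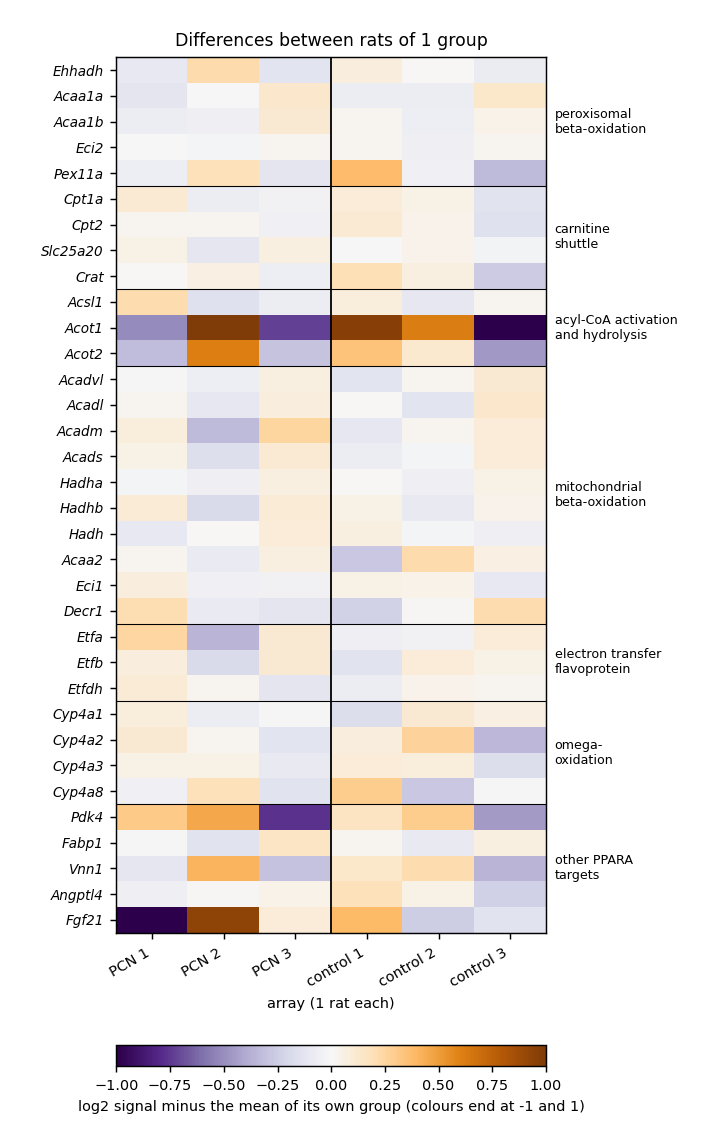
Colours give the log2 signal of each array minus the mean of its own group, for the 34 genes in rows and the 6 arrays in columns (PCN left, control right). Acot1, Acot2, Pdk4, Vnn1 and Fgf21 hold the strongest colours, with PCN replicate 2 high and control replicate 3 low for most of them, while rows of mitochondrial genes stay pale.

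Related genes outside the 34 were read from lists of the same pathways. Of 129 tested genes (149 listed), 4 were higher and 10 lower with PCN, where 4.37% and 15.5% of all tested genes were. In the list of other peroxisomal oxidation genes 1 of 21 was higher and 2 lower (median change −0.046). Crot, which passes shortened chains to carnitine for export from the peroxisome, was 3.17, 3.61 and 3.19 on the PCN arrays, against 4.28, 4.34 and 4.53 on the control arrays. It was 2.08-fold lower with no overlap (−1.06 ± 0.15, adjusted p = 5.64e-03). The peroxisomal thioesterases moved in opposite directions, Acot8 rising by 0.92 ± 0.15 and Acot5 falling by 0.93 ± 0.25 (adjusted p = 8.17e-03 and 0.0418).

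Peroxisome assembly had 2 of 15 genes higher and 1 lower (median change 0.17). Pex7, the import receptor that recognises the thiolase by its amino-terminal signal, rose by 0.51 ± 0.10, and Pex16, a membrane assembly factor, by 0.45 ± 0.12 (adjusted p = 0.0141 and 0.0402). Pex26, the membrane anchor of the export complex of import receptors, was 2.83-fold lower (adjusted p = 9.90e-04). In the list of other mitochondrial and carnitine genes 0 of 22 were higher and 2 lower (median −0.079). They were the plasma membrane carnitine transporter Slc22a5, lower by −0.96 ± 0.17, and the mitochondrial CoA carrier Slc25a42, at −0.65 ± 0.15 (adjusted p = 0.0106 and 0.0274). With the mean of its probes Slc25a42 gave −0.49 and did not pass (limma adjusted p = 0.0789). Of 6 genes for ketone bodies, Slc16a6, whose zebrafish counterpart exports ketone bodies from hepatocytes, rose 4.75-fold (2.25 ± 0.24, adjusted p = 1.94e-03), and 0 were lower (median −0.13).

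Of 12 tested genes for PPARA, its partners and coactivators 0 were higher and 2 lower (median −0.021), where 15.5% of all tested genes were lower. The lower genes were the coactivator Ppargc1a, at −1.62 ± 0.41, and the related receptor Ppard, at −0.94 ± 0.18 (adjusted p = 0.0366 and 0.0143). Both were dim, with means of −5.02 and −4.61 on the PCN arrays and −3.40 and −3.67 on the control arrays. Ppara read −0.79, −0.51 and −0.72 on the PCN arrays, against −0.52, −0.89 and −0.78 on the control arrays, with a change of 0.059 ± 0.14, and Rxra gave 0.31 ± 0.13 (adjusted p = 0.801 and 0.155, both picked with their values known). Among 26 other PPARA targets 0 were higher and 2 lower (median −0.069). They were the fatty acid uptake receptor Cd36, by −0.998 ± 0.16, and the glycerol channel Aqp7 (adjusted p = 7.84e-03 and 0.0461). Of the PCN arrays 0 measured Aqp7 well above background, and of the control arrays all 3 did, so it entered the test only through the group where it is high, and its call is a description. An estimate put Aqp7 2.99-fold lower, which is no strict bound. In it the control mean is divided by a PCN mean. Each PCN array counts there at its dimmest well-measured signal, or at the signal of Aqp7 where that is higher. With normexp background correction the change of Aqp7 was only −0.10 (limma adjusted p = 0.656). Genes known to rise on fasting gave 0 of 12 higher and 1 lower, Ppargc1a (median −0.15), and genes known to rise on feeding 0 of 10 higher and 1 lower, the lipid synthesis regulator Thrsp, at −0.93 ± 0.23 (median −0.16, adjusted p = 0.0346). In other omega-oxidation 0 of 11 passed (median −0.11), with Adh1c, an alcohol dehydrogenase, at −0.29 ± 0.23 and Cyp4f1, a P450 of a neighbouring family, at −0.084 ± 0.09 (adjusted p = 0.419 and 0.568).

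Of these 14 calls, those of Crot, Acot8, Pex26, Slc22a5, Slc16a6 and Cd36 held in all 19 alternative settings. Leaving out 1 array ended the calls of Acot5, Pex16 and Aqp7 in 5 of 6 fits, those of Slc25a42, Ppargc1a and Thrsp in 4 of 6, and those of Pex7 and Ppard in 1 of 6 (without control replicate 3 and without control replicate 1). Spike-in scaling ended the calls of Pex7 and Pex16 (limma adjusted p = 0.215 and 0.310). Median scaling ended those of Acot5, Slc25a42 and Thrsp (0.101, 0.186 and 0.0744). Quantile normalization ended those of Ppargc1a, Ppard, Aqp7 and Thrsp (0.0786, 0.0543, 0.0748 and 0.0526). Cyclic loess ended those of Ppargc1a and Aqp7 (0.0632 and 0.0561). With normexp background correction the change of Ppargc1a was −0.48, that of Ppard −0.24 and that of Aqp7 −0.10, and none of these 3 was called. Normexp also reduced the change of Pex26 to −0.70 and that of Slc16a6 to 1.32, and median scaling reduced that of Slc22a5 to −0.62 and that of Cd36 to −0.66, with each call kept.

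**Figure D4:**
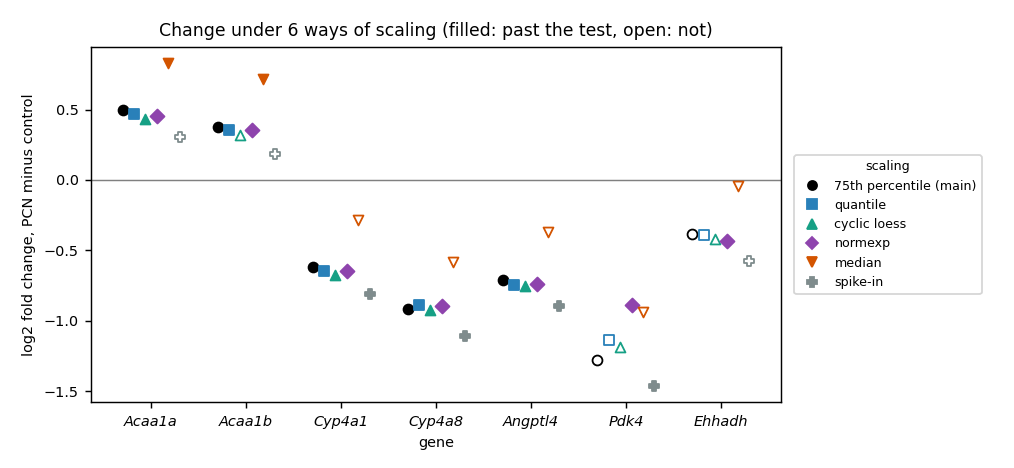
The log2 fold change, PCN minus control, of the 5 genes past the test and of Pdk4 and Ehhadh is drawn under 6 ways of scaling or correcting the arrays, filled where the adjusted p is under 0.05. Signs agree throughout, while median scaling lifts every value and leaves Cyp4a1, Cyp4a8 and Angptl4 open, and spike-in scaling lowers every value and leaves Acaa1a and Acaa1b open. Acaa1b is open with cyclic loess too.

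Scaling to the 75th percentile, to the median or to the spike-in controls shifted all genes by 1 amount, whereas quantile normalization, cyclic loess and normexp moved genes unequally. The median change of all tested genes was −0.064 in the scaling used here, 0.27 with median scaling and −0.25 with spike-in scaling, and of the genes past the test 78.1%, 24.4% and 95.6% were lower. Quantile normalization, cyclic loess and normexp gave 55.4%, 65.0% and 64.4%. Cyp4a1, Cyp4a8 and Angptl4 were called in all 6 fits that leave out 1 array, and lost the call with median scaling (−0.28, −0.58 and −0.37, adjusted p = 0.0833, 0.0508 and 0.0667). Relative to the median of all tested genes, Cyp4a1 lay at −0.56, Cyp4a8 at −0.86, Angptl4 at −0.64, Acaa1a at 0.56 and Acaa1b at 0.44 under any of these 3 scalings.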

How the data were processed

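Liver RNA of 3 PCN and 3 control rats was measured on 1-colour Agilent arrays. Per the file headers, the deposited scanner files hold intensity values after background subtraction by Agilent Feature Extraction 10.7.3.1, per the submitters' processing notes, and flags for outlier, saturated and dim spots (0 or 1 marks, other than intensity). The authors' deposited value table holds the ratio of the same signal to the 75th percentile of its array, rounded, as a comparison of both files showed; it was used as an alternative with a pseudocount of 0.01.

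Control and outlier spots were removed, log2 of the signal minus that of the array's 75th percentile was taken, and spots of 1 probe were averaged. A probe entered the test when all 3 PCN or all 3 control arrays measured it well above background (18329 of 30367 probes), the brightest probe stood for its gene, and 14 probes without a spot on some array were left out. Symbols came from RefSeq (GRCr8) by transcript accession, and 18004 probes matched exactly 1. The fit used limma 3.58.1 in R 4.3.3 with 3 arrays per group, Benjamini-Hochberg adjustment over 16389 genes and a threshold of 0.05, and was tested on simulated data with 200 changed genes. The number of arrays limits the precision.

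All 34 genes are described. From each related list, the text names up to 4 genes past the test by size of change or, with none, the 2 brightest; exceptions are stated. Members and lists were chosen with earlier results of these data known. The files used hold no mean signals, so normexp (offset 50) ran on median signals. Replicate numbers name different rats and did not pair them: same-numbered arrays correlated at −0.102, −0.026 and −0.052. Scaling, background correction, filter, probe rule, limma-trend, the replicate block and leaving out each array were tried as alternatives, 19 in all. Some genes of these lists are not reported here.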

Additional observations from a re-analysis of the deposited data

How the results depend on the processing

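Across 19 alternatives, 3263 genes passed in the scaling used here, with 2 of the 34 higher, 3 lower, and 4 related genes higher and 10 lower. With median scaling 6742 genes passed, 14 of the 34 were higher and 0 lower, 33 related genes were higher, and the medians were 0.39 (peroxisomal), 0.37 (mitochondrial) and −0.089 (omega). Signs turned there for Cpt2 (0.069), Acsl1 (0.19), Acot1 (0.11), Acadl (0.18), Acadm (0.21), Hadhb (0.31), Eci1 (0.19), Etfb (0.26), Etfdh (0.074), Cyp4a3 (0.11), Adh1c (0.043) and Cyp4f1 (0.25). With spike-in scaling 0 of the 34 were higher, 2 related genes were higher and 22 lower, and the medians were −0.14, −0.16 and −0.62. Signs turned there for Eci2 (−0.14), Cpt1a (−0.17), Slc25a20 (−0.13), Acads (−0.16), Hadha (−0.14), Hadh (−0.090), Decr1 (−0.019), Etfa (−0.12), Fabp1 (−0.069), Vnn1 (−0.0016) and Ppara (−0.13). Normexp gave 5 of the 34 lower, with Cpt1a at −0.017, Acads at −0.023 and Hadha at −0.018. Quantile normalization gave 6 related genes lower and Hadhb at 0.027. Cyclic loess gave 1 of the 34 higher, with Cpt1a at −0.018 and Acads at −0.020. The mean of a gene's probes put Hadha at −0.037. Without a filter 1967 genes passed, 0 of the 34 were higher, and 2 related genes were higher and 6 lower. With the replicate number as a block 2067 genes passed, 0 of the 34 were higher (Acaa1a at adjusted p = 0.0529) and 2 related genes were higher, while 3 of the 34 were lower, with Cyp4a1 not past the threshold (0.0524) and Pdk4 past it (0.0153). Leaving out 1 array gave 2023 to 2592 genes past the test, 0 to 1 of the 34 higher, and 2 to 5 related genes higher and 5 to 9 lower. Values whose sign turned in such a fit ranged from −0.054 to 0.065 for Cpt1a, −1.02 to 0.25 for Acot1, −0.051 to 0.25 for Etfa, −0.26 to 0.034 for Acadm, −0.074 to 0.073 for Hadhb, −0.14 to 0.024 for Etfb, −0.019 to 0.34 for Vnn1, −0.023 to 0.17 for Ppara and −0.020 to 0.11 for Acads. The cause was not tested, except that fits without an array have fewer samples. Slide and treatment cannot be told apart, and all probes used for the 34 genes were well above background on all 6 arrays.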
